A study of Mus musculus with 18 samples.

Results

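The genes described here are 9 that answer the luteinizing hormone (LH) surge in the mouse follicle or build the matrix of the expanding cumulus: Areg, Ereg, Btc, Ptgs2, Has2, Tnfaip6, Ptx3, Cebpb and Cited1. They were chosen by symbol, with earlier results of these data known. Of the 9, 8 had at least 1 probe set annotated to that symbol alone, among 18193 genes with such a probe set, and Areg was not analysed here. For each gene the probe set with the highest mean signal over the 18 arrays stood for it, and the remaining ones of the 13 probe sets of these genes served as a check. Probe sets are groups of short probes for one transcript on an Affymetrix mouse genome array.

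RNA came from whole ovaries of females on a C57B6J/S129 background that were 21 days old when left untreated or first injected. The targeted gene Pik3cd encodes the delta isoform of the PI 3-kinase catalytic subunit, which leukocytes express at high levels. Pik3cd-/- females have no working copy, and Pik3cd+/- females, which have a working and a disrupted copy, are the comparison genotype. A group without any disrupted copy was not among the 6. In each genotype 3 arrays followed PMSG, 3 followed oestradiol (E2) and 3 came from untreated females. PMSG (pregnant mare serum gonadotropin, a hormone with mainly FSH-like activity) was given as 10 IU in a single injection, and ovaries were taken 44 hours later. E2 was injected 3 times, 0.03 ml every 24 hours, and ovaries were taken 72 hours after the first injection. The labels give no E2 concentration, no vehicle group, no construction of the Pik3cd allele and no number of ovaries per array, and they name no ovulatory dose of LH or hCG. Treatment therefore cannot be told apart from the injection and the hours that passed.

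In the preovulatory follicle, LH acts on mural granulosa and theca cells. These release the EGF-family ligands amphiregulin (Areg), epiregulin (Ereg) and betacellulin (Btc), which activate the EGF receptor on cumulus cells. The cumulus cells then express prostaglandin synthase 2 (Ptgs2) and make a hyaluronan matrix: Has2 synthesises hyaluronan, Tnfaip6 attaches inter-alpha-trypsin inhibitor heavy chains to it, and pentraxin Ptx3 ties those chains together. Cebpb is a leucine zipper transcription factor that granulosa cells need, together with Cebpa, to ovulate and luteinize in mice. Cited1 is a transcriptional coregulator that binds CBP and p300 and does not itself bind DNA.

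The promoters of Cebpb and Cited1, the members that changed most clearly after PMSG, and of Ptx3, which differed between the treatments, are printed to show what sequence precedes these starts. Each line gives the 250 bases before the RefSeq transcription start on the gene's strand, in build GRCm38.p6, and 7 of the 9 members had such an entry. Cebpb lies at chr2:167688665-167688914 on the plus strand. Cited1 lies at chrX:102252182-102252431 on the minus strand and is the first of 3 listed starts. Ptx3 lies at chr3:66219637-66219886 on the plus strand. Capitals mark TGACG (the core letters of a cAMP response element) and GGGCGG (a GC box), each on either strand, and TATAAA on the gene's strand.
Cebpb: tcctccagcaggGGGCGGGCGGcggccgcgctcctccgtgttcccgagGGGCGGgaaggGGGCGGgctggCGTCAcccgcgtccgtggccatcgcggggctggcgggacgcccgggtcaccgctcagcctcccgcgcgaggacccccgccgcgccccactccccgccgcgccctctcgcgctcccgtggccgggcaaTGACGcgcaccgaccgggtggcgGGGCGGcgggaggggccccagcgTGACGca
Cited1: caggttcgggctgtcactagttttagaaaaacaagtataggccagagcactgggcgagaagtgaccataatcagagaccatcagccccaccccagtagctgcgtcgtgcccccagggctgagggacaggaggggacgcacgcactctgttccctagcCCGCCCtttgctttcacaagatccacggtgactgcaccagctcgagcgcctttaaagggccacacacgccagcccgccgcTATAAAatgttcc
Ptx3: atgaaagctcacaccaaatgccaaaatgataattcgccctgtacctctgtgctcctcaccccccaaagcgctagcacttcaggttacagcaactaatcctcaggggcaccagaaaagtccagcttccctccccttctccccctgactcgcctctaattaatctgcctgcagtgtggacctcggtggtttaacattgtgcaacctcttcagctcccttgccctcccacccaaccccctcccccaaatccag

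The Cebpb window held TGACG 3 times, beginning 180, 53 and 7 bases before the start, and GGGCGG 5 times, of which the first pair overlap. The Cited1 window held GGGCGG 93 bases and TATAAA 13 bases before the start. TGACG was found 33 bases before the third Cited1 start and TATAAA 115 bases before the second. None of the 7 motifs searched matched the Ptx3 window, which says only that those letters are not in it. The 4 motifs not found in any of these 3 windows, on either strand, were TGACGTCA (the whole cAMP response element, which contains TGACG), TTGCGCAA (a C/EBP palindrome), TGANTCA (AP-1) and TGTTTAC (forkhead). Among 32851 windows of the same length, 17.8% held TGACG, 32.7% GGGCGG, 7.59% TATAAA, 1.55% TGACGTCA, 0.164% TTGCGCAA, 6.75% TGANTCA and 3.17% TGTTTAC. These matches are descriptions of sequence and were not related to the measured values by any test.

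The values were linear intensity units, with array medians of 48.43 to 50.88. On average, arrays of a group correlated at 0.969 or more. The clearest of 6 Pik3cd probe sets gave 23.5 ± 3.02, 22.4 ± 4.59 and 26.2 ± 2.52 in Pik3cd-/- ovaries after PMSG, after E2 and untreated, against 69.7 ± 2.08, 70.4 ± 3.19 and 67.1 ± 4.95 in Pik3cd+/- ovaries (SD, n = 3). Its log2 differences were -1.29, -1.36 and -1.12 (limma, adjusted p = 1.3e-05, 1.7e-05 and 2.6e-04 over all probe sets), while the brightest Pik3cd probe set did not pass. All 6 granulosa and all 5 oocyte markers were above the filter on low values, with mean signals such as 11420 for Inha and 3292 for Zp3. A replicate is an array that the labels call a separate biological repeat, and 3 arrays per group limit the precision of every value below.

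Most of the matrix and ligand genes were dim. Olfactory receptor genes, which an ovary is not known to express, gave a background: their 44 probe sets had a median of 17.1, a 90th percentile of 33.5 and a 95th percentile of 43.9 units, and 10 Y-linked probe sets ran from 4.20 to 16.95 in these female ovaries. Has2, Ptgs2 and Tnfaip6 had their highest group means at 24.7, 27.9 and 36.8 units, all below that 95th percentile, so they were near background in every group. With the 90th percentile, Tnfaip6 lay above it and 2 genes remained near background. Btc, at 45.8 units at most, lay just above the 95th percentile. Cebpb was far above it, Ptx3 was above it in all 18 arrays, Cited1 was above it in some groups only, and Ereg in 3 arrays.

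**Figure D1:**
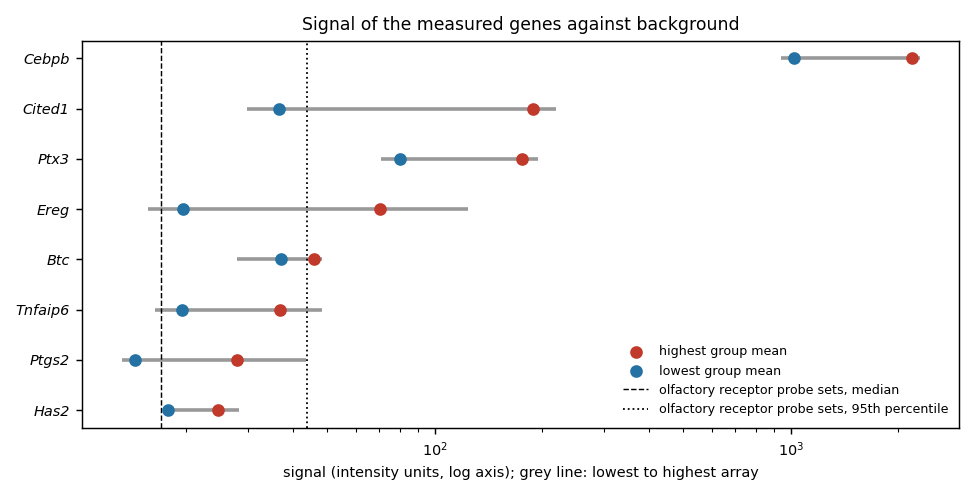
Signal of the 8 measured genes on a log axis (intensity units); grey lines run from the lowest to the highest of the 18 arrays, red and blue points are the highest and lowest of the 6 group means, and vertical lines are the median (17.1) and the 95th percentile (43.9) of 44 olfactory receptor probe sets. The highest group means of Tnfaip6 (36.8), Ptgs2 (27.9) and Has2 (24.7) lie left of the 95th percentile line.

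A filter kept genes with at least 1 group mean above the median of all values, which is 49.9 units, and left 12713 genes for testing. Of the 9 members, 4 passed it: Cebpb, Cited1, Ptx3 and Ereg. Ereg passed only through the Pik3cd+/- PMSG group, where it is highest, so its being tested already implies a difference. Differences below are on the log2 scale of signal plus 8.58 units, a pseudocount that shrinks the change of dim genes. They come from limma, are given with the standard error of the model (n = 3 arrays per group), and are called at an adjusted p under 0.05 over all 12713 genes. In whole ovaries, fewer cells of a type and less RNA per cell cannot be told apart.

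PMSG against untreated ovaries asked which of these genes the gonadotropin moves. After PMSG the transcription regulators Cebpb and Cited1 rose in both genotypes, Cebpb to 1.72 times the untreated mean signal in Pik3cd-/- and 2 times in Pik3cd+/- ovaries, and Cited1 to 2.44 times in Pik3cd+/- ovaries. No ratio is given for Cited1 in Pik3cd-/- ovaries, where its untreated mean of 42.4 units lay under the background percentile. The matrix gene Ptx3 rose in Pik3cd+/- ovaries, to 1.39 times, and its mean was 0.97 times the untreated one in Pik3cd-/- ovaries. Ereg was not called in either genotype. Called as higher were 2 of the 4 tested members in Pik3cd-/- ovaries, where 1.71% of all genes tested were called higher (2.39% in either direction), and 3 of 4 in Pik3cd+/- ovaries, where 5.81% were (17.7% in either direction). No member was called lower, against 0.684% of all genes in Pik3cd-/- and 11.9% in Pik3cd+/- ovaries.

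Cebpb gave 1885, 1595 and 1802 units in Pik3cd-/- ovaries after PMSG, against 939.6, 996.5 and 1128 untreated. After PMSG Pik3cd+/- ovaries gave 1979, 2275 and 2301, against 1010, 1168 and 1103 untreated. In both genotypes every PMSG array lay above every untreated array. The log2 difference was 0.78 ± 0.12 in Pik3cd-/- ovaries (adjusted p = 0.00401) and 0.99 ± 0.12 in Pik3cd+/- ovaries (adjusted p = 3.0e-04). The second, dimmer Cebpb probe set averaged 486 ± 64.1 after PMSG against 312 ± 56.5 untreated in Pik3cd-/- ovaries, and 601 ± 141 against 342 ± 45.6 in Pik3cd+/- ovaries (SD, n = 3). Its differences of 0.63 ± 0.18 and 0.78 ± 0.18 passed in Pik3cd+/- ovaries (adjusted p = 0.0110 over all probe sets) and not in Pik3cd-/- ovaries (adjusted p = 0.0815).

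Cited1 gave 118, 108 and 153 units in Pik3cd-/- ovaries after PMSG, against 31.4, 43.4 and 52.5 untreated. In Pik3cd+/- ovaries it gave 184, 219 and 163 after PMSG, against 85.8, 68.7 and 77.1 untreated. Again the arrays did not overlap. Of the untreated Pik3cd-/- arrays 2 lay under the background percentile of 43.9, and all untreated Pik3cd+/- arrays lay above it. The rise was 1.41 ± 0.18 in Pik3cd-/- ovaries (adjusted p = 6.4e-04) and 1.20 ± 0.18 in Pik3cd+/- ovaries (adjusted p = 8.9e-04). Cited1 had the largest PMSG difference among the called members.

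Ptx3 gave 114, 140.0 and 127 units in Pik3cd-/- ovaries after PMSG, against 150, 131 and 112 untreated, and these arrays overlapped. In Pik3cd+/- ovaries it gave 195, 176 and 157.0 after PMSG, against 116, 132 and 131 untreated, with no overlap. The difference was -0.036 ± 0.12 in Pik3cd-/- ovaries (adjusted p = 0.905) and 0.45 ± 0.12 in Pik3cd+/- ovaries (adjusted p = 0.0216). The call in Pik3cd+/- ovaries was lost without untreated replicate 1, PMSG replicate 1 or PMSG replicate 2 of that genotype (adjusted p = 0.0991, 0.0926 and 0.0624), with the replicate block in the 2 compared groups alone (0.0774), and without the 2 arrays with the highest oviduct marker means, Pik3cd+/- PMSG replicate 1 and untreated replicate 2 (0.143). The second Ptx3 probe set was near background in every group, with means from 14.6 up to 17 units, and bears on neither value.

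Ereg gave 27.6, 23.6 and 85.8 units in Pik3cd-/- ovaries after PMSG, against 24.9, 15.7 and 19.1 untreated. Pik3cd+/- ovaries gave 45.5, 40.9 and 124 after PMSG, against 24.7, 25.8 and 29.4 untreated. Replicate 3 of each PMSG group stood well above its group mates, and without those arrays the Pik3cd-/- values lay within the background range. The differences were 0.76 ± 0.36 in Pik3cd-/- ovaries (adjusted p = 0.265) and 1.01 ± 0.36 in Pik3cd+/- ovaries (adjusted p = 0.0629), with no overlap of arrays in the second. Without Pik3cd-/- PMSG replicate 3 the first value was 0.27 and the second was called (adjusted p = 0.0240), and without Pik3cd+/- PMSG replicate 3 Ereg fell below the filter and was not tested. Cebpb, Cited1 and Ptx3 also had no overlap and were higher in Pik3cd+/- ovaries, where 15.1% of all genes did. Ereg is left out of that count, since the filter kept it only for its high mean there. In Pik3cd-/- ovaries Cebpb and Cited1 did so, where 12.4% of all genes did.

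**Figure D2:**
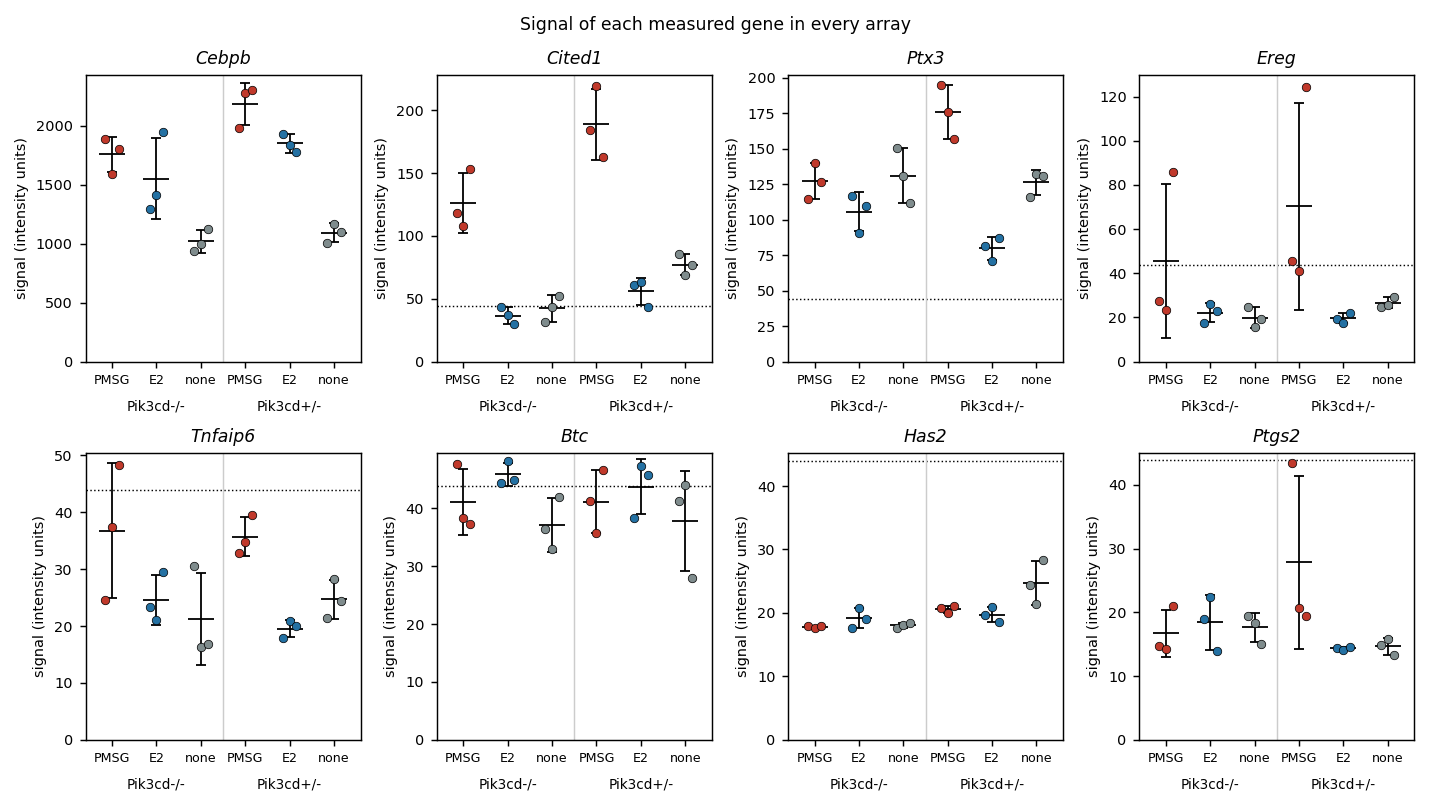
Signal (linear intensity units, axes from 0) of the 8 measured genes in every array; points are single arrays (red PMSG, blue E2, grey untreated), horizontal bars the mean and error bars the SD of 3 arrays, with the 3 Pik3cd-/- groups left of the line and the 3 Pik3cd+/- groups right of it; the dotted line, not drawn for Cebpb, is the 95th percentile of olfactory receptor probe sets (43.9). Cebpb and Cited1 sit higher after PMSG than untreated in both genotypes, while Has2 stays below the dotted line in all 18 arrays.

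The members under the filter were measured with the same model but without it, and they are given for completeness since most of them lie near background. Tnfaip6 gave 24.5, 37.5 and 48.3 units in Pik3cd-/- ovaries after PMSG against 30.5, 16.4 and 16.8 untreated, and 32.9, 34.8 and 39.5 in Pik3cd+/- ovaries after PMSG against 21.4, 28.3 and 24.4 untreated. The arrays overlapped in Pik3cd-/- ovaries and not in Pik3cd+/- ovaries. Its differences of 0.60 ± 0.18 and 0.42 ± 0.18 did not pass (adjusted p = 0.114 and 0.151 without the filter). Ptgs2 gave 14.8, 14.3 and 20.9 units in Pik3cd-/- ovaries after PMSG against 19.5, 18.4 and 15.04 untreated, and 43.5, 20.7 and 19.4 in Pik3cd+/- ovaries after PMSG against 14.9, 15.8 and 13.3 untreated. The highest Ptgs2 value came from 1 array, Pik3cd+/- PMSG replicate 1, which had an oviduct marker mean of 8.16 on the log2 scale against 6.25 and 5.56 in its group mates. The Ptgs2 difference in Pik3cd+/- ovaries, 0.59 ± 0.18, passed without the filter (adjusted p = 0.0451), and that in Pik3cd-/- ovaries was -0.059 (adjusted p = 0.910). Ptgs2 was not fitted without Pik3cd+/- PMSG replicate 1, and whether oviduct tissue bears on its values was not tested.

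Has2 averaged 17.8 ± 0.195 units in Pik3cd-/- ovaries after PMSG against 18.02 ± 0.337 untreated, and 20.6 ± 0.534 in Pik3cd+/- ovaries after PMSG against 24.7 ± 3.46 untreated (SD, n = 3). Its PMSG differences were -0.012 and -0.19 (adjusted p = 0.954 and 0.0820 without the filter), so no rise of Has2 was detectable at this signal. Btc averaged 41.0 ± 5.70 units in Pik3cd-/- ovaries after PMSG against 37.1 ± 4.60 untreated, and 41.2 ± 5.45 in Pik3cd+/- ovaries after PMSG against 37.7 ± 8.62 untreated. Its PMSG differences were 0.12 and 0.11 (adjusted p = 0.712 and 0.639 without the filter), with 95% confidence intervals from -0.16 to 0.40 and from -0.17 to 0.40. The second probe sets of Has2, Btc and Ptgs2 were near background throughout, with group means of 9.58 to 16.7, 7.11 to 8.82 and 5.63 to 6.59 units.

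Oocyte, macrophage and steroidogenic markers moved with PMSG as well. All 5 oocyte markers were called lower in Pik3cd+/- ovaries after PMSG, with a median difference of -0.92 beside -0.045 over all genes, and 0 in Pik3cd-/- ovaries, with a median of -0.36 beside -0.015. The mean log2 value of that list ran from 11.16 to 11.36 in Pik3cd-/- ovaries after PMSG against 11.54 to 11.85 untreated, and from 9.89 to 10.14 in Pik3cd+/- ovaries after PMSG against 10.91 to 11.05 untreated. Of 9 macrophage markers, 4 were called higher in Pik3cd+/- ovaries after PMSG (Aif1, C1qa, C1qb and C1qc) and 0 in Pik3cd-/- ovaries. The mean log2 value of the list ran from 7.96 to 8.28 in Pik3cd-/- ovaries after PMSG against 7.49 to 8.34 untreated, and from 7.74 to 8.61 in Pik3cd+/- ovaries after PMSG against 7.13 to 7.37 untreated. Of 5 theca and steroidogenic markers, 3 were called higher in Pik3cd-/- and 4 in Pik3cd+/- ovaries, with list means of 11.66 to 12.25 against 9.49 to 10.45 and of 11.56 to 12.46 against 10.00 to 10.21. No granulocyte marker passed the filter, with list genes averaging 12.1 to 25.6 units, and no marker of these lists was at 0. Of 6 granulosa markers, 0 were called in Pik3cd-/- ovaries after PMSG, and 1 was called lower and 0 higher in Pik3cd+/- ovaries. Over all genes tested, 1.71% were called higher and 0.684% lower after PMSG in Pik3cd-/- ovaries, and 5.81% and 11.9% in Pik3cd+/- ovaries. No marker was called for a PMSG response that differed between genotypes, so these counts do not show such a difference. The part of these cell types in the members' differences was not tested.

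E2 against untreated ovaries asked whether the steroid moves the same genes. In Pik3cd+/- ovaries Cebpb rose after E2 on its brighter probe set, to 1.69 times the untreated mean, and Ptx3 fell, to 0.632 times. Neither was called in Pik3cd-/- ovaries. Of the 4 tested members 2 were called in Pik3cd+/- ovaries, 1 in each direction, where 1.62% of all genes were called (1.18% higher and 0.44% lower). In Pik3cd-/- ovaries 0 were called by limma, where 0.0551% of all genes (7 genes) were. There 2 members had an unadjusted p under 0.05, as did 1862 of the 12713 genes tested.

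After E2, Cebpb gave 1295, 1417 and 1948 units in Pik3cd-/- ovaries, against 939.6, 996.5 and 1128 untreated. In Pik3cd+/- ovaries it gave 1934, 1841 and 1779 after E2, against 1010, 1168 and 1103 untreated. The arrays did not overlap in either genotype, and the spread was wide in Pik3cd-/- E2 ovaries, where replicate 3 was the highest. The differences were 0.58 ± 0.12 (adjusted p = 0.128) and 0.76 ± 0.12 (adjusted p = 0.00905). On the second, dimmer Cebpb probe set they were 0.40 ± 0.18 and 0.63 ± 0.18. Neither of these passed (limma, adjusted p = 0.301 and 0.0903 over all probe sets), so the E2 call rests on the brighter probe set. Pik3cd-/- E2 replicate 3 also had the highest macrophage mean of that group, 8.75 against 8.10 and 6.87 in its group mates, and the lowest oocyte mean, 10.86 against 11.68 and 11.76. Its mean of the adipocyte markers Adipoq, Fabp4 and Lep was the highest too, 9.73 against 8.71 and 4.87. Whether these cell types bear on the Cebpb values was not tested.

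After E2, Ptx3 gave 116.9, 90.7 and 109 units in Pik3cd-/- ovaries, against 150, 131 and 112 untreated. Pik3cd+/- ovaries gave 81.4, 70.8 and 86.9 after E2, against 116, 132 and 131 untreated. All Pik3cd+/- E2 arrays were below all untreated ones, whereas the Pik3cd-/- arrays overlapped. The differences were -0.29 ± 0.12 (adjusted p = 0.313) and -0.61 ± 0.12 (adjusted p = 0.0224). The Ptx3 call in Pik3cd+/- ovaries was lost without untreated replicate 2 or 3 or E2 replicate 1 or 2 of that genotype, with adjusted p between 0.0570 and 0.106, and without the 2 arrays of high oviduct marker mean (0.0917).

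Cited1 gave 43.2, 36.8 and 29.8 units in Pik3cd-/- ovaries after E2 and 61.1, 63.0 and 43.4 in Pik3cd+/- ovaries after E2, with differences from untreated of -0.16 ± 0.18 and -0.42 ± 0.18 (adjusted p = 0.663 and 0.238). Ereg gave 17.6, 25.9 and 22.9 units in Pik3cd-/- ovaries after E2 and 19.3, 17.5 and 22.2 in Pik3cd+/- ovaries after E2, with differences of 0.11 ± 0.36 and -0.32 ± 0.36 (adjusted p = 0.896 and 0.711). All 6 of these Ereg values lay under the background percentile of 43.9. Tnfaip6, Has2, Btc and Ptgs2 did not pass after E2 in either genotype without the filter either (adjusted p between 0.115 and 0.984).

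PMSG against E2 compared treatments that also differ in hours and in number of injections. Cited1 was higher after PMSG in both genotypes, by 1.58 ± 0.18 in Pik3cd-/- ovaries (adjusted p = 1.3e-04) and by 1.62 ± 0.18, or 3.38 times the E2 mean, in Pik3cd+/- ovaries (adjusted p = 1.0e-04). All 3 Pik3cd-/- E2 arrays of Cited1 lay under the background percentile, so the size of the first difference is limited by background. Ptx3 was higher after PMSG in Pik3cd+/- ovaries, at 2.21 times the E2 mean (1.06 ± 0.12, adjusted p = 1.4e-04), and gave 0.25 ± 0.12 in Pik3cd-/- ovaries (adjusted p = 0.288). Ereg was higher in Pik3cd+/- ovaries (1.33 ± 0.36, adjusted p = 0.0274) and gave 0.65 ± 0.36 in Pik3cd-/- ovaries (adjusted p = 0.351). Cebpb did not pass in either genotype, at 0.20 ± 0.12 and 0.24 ± 0.12 (adjusted p = 0.413 and 0.229). Called, all as higher, were 1 of 4 in Pik3cd-/- ovaries, where 4.11% of all genes were called (3.33% higher), and in Pik3cd+/- ovaries Cited1 and Ptx3 of the 3 members other than Ereg, where 11.2% were (3.54% higher). Ereg is left out of the second count, since it was tested only for its high Pik3cd+/- PMSG mean. The Ereg call was lost without E2 replicate 1 or 2 of Pik3cd+/- ovaries (adjusted p = 0.0760 and 0.0942), with only the 2 compared groups in the model (0.0527) and with the replicate block in those groups (0.0771), and E2 values of Ereg are at background. Without the filter Tnfaip6 also passed in Pik3cd+/- ovaries (0.65 ± 0.18, adjusted p = 0.0405), at 35.7 ± 3.40 units after PMSG against 19.6 ± 1.56 after E2 (SD, n = 3), both near background.

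**Figure D3:**
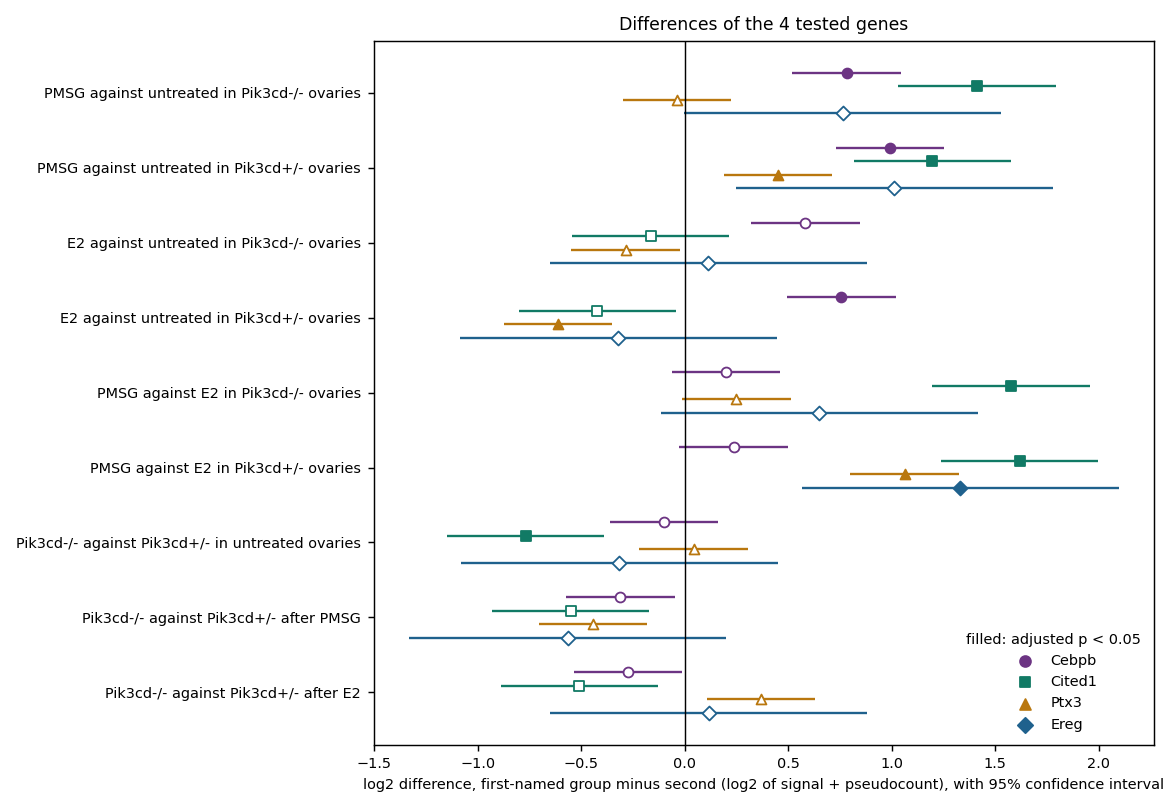
Log2 differences (log2 of signal plus pseudocount, first-named group minus second) of the 4 tested genes in 9 comparisons, with 95% confidence intervals from limma over 3 arrays per group; filled symbols have an adjusted p under 0.05. Cited1 lies above 1 in all 4 comparisons of PMSG with untreated or E2, and Ptx3 is filled on the right for PMSG and on the left for E2 in Pik3cd+/- ovaries.

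The genotypes were compared within each state. Cited1 was lower in untreated Pik3cd-/- ovaries, where its mean of 42.4 units lay under the background percentile, so the size of the difference is limited by background. It was the only tested member called between genotypes in any of the 3 states. The arrays gave 31.4, 43.4 and 52.5 units in Pik3cd-/- ovaries against 85.8, 68.7 and 77.1 in Pik3cd+/- ovaries, without overlap, and the difference was -0.77 ± 0.18 (adjusted p = 0.0385). Called were 1 of 4 members, where 2.17% of all genes were called and 1.34% as lower. That call was lost without any of the 3 untreated Pik3cd+/- arrays (adjusted p = 0.154, 0.0942 and 0.0903) or untreated Pik3cd-/- replicate 1 or 2 (0.0974 and 0.136), and also without Pik3cd+/- PMSG replicate 1, Pik3cd-/- PMSG replicate 1 or Pik3cd+/- E2 replicate 2 (0.0525, 0.0526 and 0.0513). The adjusted p was 0.124 without the 2 arrays of high oviduct marker mean and 0.0512 with a pseudocount of 64. Cebpb gave -0.10 ± 0.12, Ptx3 0.043 ± 0.12 and Ereg -0.32 ± 0.36 in untreated ovaries (adjusted p = 0.690, 0.879 and 0.659). Has2, near background, was lower in untreated Pik3cd-/- ovaries without the filter (-0.32 ± 0.066, adjusted p = 0.0344), at 17.7, 18.02 and 18.4 units against 24.5, 21.4 and 28.3 in Pik3cd+/- ovaries.

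After PMSG, Cebpb, Cited1 and Ptx3 had lower values in every Pik3cd-/- array than in every Pik3cd+/- array, a pattern that 11.2% of all genes showed, and 0 of the 4 tested members were called by limma, where 4.13% of all genes were. Without adjustment 3 had a p under 0.05, as did 2263 of the 12713 genes tested. Mean Cebpb signal was 1761 ± 149 in Pik3cd-/- ovaries and 2185 ± 179 in Pik3cd+/- ovaries (-0.31 ± 0.12, adjusted p = 0.188). Mean Cited1 signal was 126 ± 23.8 in Pik3cd-/- ovaries and 189 ± 28.4 in Pik3cd+/- ovaries (-0.55 ± 0.18, adjusted p = 0.0991). For Ptx3 it was 127 ± 12.8 in Pik3cd-/- and 176 ± 18.8 in Pik3cd+/- ovaries (-0.44 ± 0.12, adjusted p = 0.0554). Ereg averaged 45.7 ± 34.9 in Pik3cd-/- and 70.2 ± 46.9 in Pik3cd+/- ovaries (-0.57 ± 0.36, adjusted p = 0.458). In these 2 groups same-numbered arrays deviated together, so the replicate number was also fitted as a block. The block in the model of 6 groups gave Ereg an adjusted p of 0.374 and 464 called genes in place of 525. A model of these 2 groups alone with the block, added after the data were seen, gave 1062 called genes. Its adjusted p for Ereg was 0.0160. The filter kept Ereg only for its high Pik3cd+/- PMSG mean and the pairing was read from these data, so that value is a description. In the same model Ptx3, Cited1 and Cebpb had adjusted p of 0.0571, 0.0842 and 0.0897. With a pseudocount of 64 and no block, Ptx3 (-0.33) and Cited1 (-0.41) were called (adjusted p = 0.0471 and 0.0432).

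After E2 the members did not share a direction. Ptx3 averaged 106 ± 13.5 units in Pik3cd-/- ovaries against 79.7 ± 8.20 in Pik3cd+/- ovaries (0.37 ± 0.12, adjusted p = 0.0511). Cited1 averaged 36.6 ± 6.67 in Pik3cd-/- against 55.9 ± 10.8 in Pik3cd+/- ovaries (-0.51 ± 0.18, adjusted p = 0.0615), with all 3 Pik3cd-/- arrays under the background percentile, and Cebpb 1553 ± 347 in Pik3cd-/- against 1851 ± 78.1 in Pik3cd+/- ovaries (-0.27 ± 0.12, adjusted p = 0.130). Of the 4 tested members 3 had an unadjusted p under 0.05, as did 4383 of the 12713 genes tested. After adjustment 0 of the members were called by limma, where 16.8% of all genes (2141) were. That background itself fell to 97 genes with only the 2 compared groups in the model and to 0 with the replicate block in those groups, where 3246 genes had an unadjusted p under 0.05. Same-numbered arrays of those groups did not deviate together (correlations of 0.0797, -0.169 and 0.0434), so the block does not decide how many genes differ. Ereg gave 0.12 ± 0.36 (adjusted p = 0.844). Without Pik3cd-/- E2 replicate 3, the Cebpb difference was -0.45 and was called (adjusted p = 0.0053), and that after PMSG was called too (adjusted p = 0.0451).

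The response itself was compared between the genotypes by the interaction of treatment and genotype. No gene was called for PMSG or E2, with 1194 and 924 genes at an unadjusted p under 0.05, so 0% is the background of both. The interaction of Ptx3 with PMSG, Pik3cd-/- minus Pik3cd+/-, was -0.49 ± 0.17 (95% confidence interval from -0.86 to -0.12, unadjusted p = 0.0133, adjusted p = 0.416). For Cebpb the interaction was -0.21 (from -0.58 to 0.16), for Cited1 0.22 (from -0.32 to 0.75) and for Ereg -0.25 (from -1.33 to 0.83), with adjusted p between 0.721 and 0.903. For E2 it was 0.33 for Ptx3, -0.17 for Cebpb, 0.26 for Cited1 and 0.43 for Ereg (adjusted p between 0.692 and 0.823). A Ptx3 call in one genotype and not in the other is therefore not shown to be a difference between them after adjustment.

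Over the 4 members that passed the filter, the median log2 difference was 0.77 for PMSG in Pik3cd-/- ovaries beside -0.015 over all genes tested, and 1.00 beside -0.045 in Pik3cd+/- ovaries. For E2 it was -0.025 beside -0.050 in Pik3cd-/- and -0.37 beside 0.0035 in Pik3cd+/- ovaries. Between genotypes it was -0.21 beside -0.011 untreated, -0.50 beside 0.014 after PMSG and -0.078 beside -0.068 after E2. Since Ereg passed only where it is high, these medians are descriptions.

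In the order of the 6 group means, Cebpb ran from Pik3cd+/- PMSG through Pik3cd+/- E2, Pik3cd-/- PMSG and Pik3cd-/- E2 to the untreated Pik3cd+/- and then the untreated Pik3cd-/- ovaries. The top group did not overlap with the next, the lowest treated group did not overlap with the untreated ones, and the other neighbours overlapped. Cited1 ran from Pik3cd+/- PMSG through Pik3cd-/- PMSG and untreated Pik3cd+/- to Pik3cd+/- E2 without overlap, and the remaining neighbours overlapped. Ptx3 was highest in Pik3cd+/- PMSG and lowest in Pik3cd+/- E2, each apart from its neighbour, with the other 4 groups overlapping in between. Ereg and Btc had overlap between all neighbours in the order.

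The other genes of the pathway were taken from a list of 62, of which 58 had a probe set with that symbol alone and 47 were tested. After PMSG 5 were called higher and 0 lower in Pik3cd-/- ovaries, and 10 higher and 4 lower in Pik3cd+/- ovaries. Over all genes tested 1.71% were called higher and 0.684% lower in Pik3cd-/- ovaries, and 5.81% higher and 11.9% lower in Pik3cd+/- ovaries. The 4 lower genes were 2 of EGF receptor signalling and 2 of the oocyte group. The median over the 47 was 0.13 in each genotype, beside -0.015 and -0.045 over all genes.

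Among 8 tested EGF receptor signalling genes, Errfi1, which inhibits the EGF receptor, was called higher after PMSG in both genotypes (0.66, adjusted p = 0.0457 in Pik3cd-/- and 1.21, adjusted p = 4.5e-04 in Pik3cd+/- ovaries). In Pik3cd+/- ovaries the ligand Hbegf was also higher (0.56), and the receptors Erbb2 (-0.66) and Egfr (-0.49) were lower (adjusted p = 0.0382, 0.00701 and 0.0469). None of 7 prostaglandin genes was called after PMSG in either genotype. Of 9 hyaluronan matrix genes, the protease Adamts1, which cleaves versican, was higher in both (0.74, adjusted p = 0.0464 in Pik3cd-/- and 1.40, adjusted p = 4.3e-04 in Pik3cd+/- ovaries). Versican itself (Vcan) was called in Pik3cd-/- ovaries (0.79, adjusted p = 0.0424) and not in Pik3cd+/- ovaries. No pathway gene was called for a PMSG response that differed between genotypes, so the Vcan rise is not shown to be particular to Pik3cd-/- ovaries.

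Of 12 transcription regulators, the AP-1 subunit Fosl2 was higher after PMSG in both genotypes (1.00, adjusted p = 0.00153 in Pik3cd-/- and 1.18, adjusted p = 2.3e-04 in Pik3cd+/- ovaries). Cited2, a relative of Cited1 (0.81, adjusted p = 8.5e-04), and Fos (1.23, adjusted p = 0.00565) were called higher in Pik3cd+/- ovaries. The last of the 4 called there, named after its value was seen, was Cebpa, the partner of Cebpb (0.91, adjusted p = 0.0241). Of 5 tested other LH targets, the protease gene Ctsl was higher in both genotypes (0.49, adjusted p = 6.0e-04 in Pik3cd-/- and 0.24, adjusted p = 0.0149 in Pik3cd+/- ovaries) and the metallothionein Mt1 in Pik3cd+/- ovaries (0.59, adjusted p = 0.0250). Of the 6 oocyte factors and their receivers, the oocyte ligand Gdf9 (-0.92, adjusted p = 0.00299) and the signal carrier Smad3 (-0.59, adjusted p = 0.00239) were lower and the receptor Tgfbr1 higher (0.33, adjusted p = 0.0217) in Pik3cd+/- ovaries. The oocyte markers moved down in the same comparison, with a median of -0.92, and the part of the oocyte share of the RNA in these values was not tested.

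**Figure D4:**
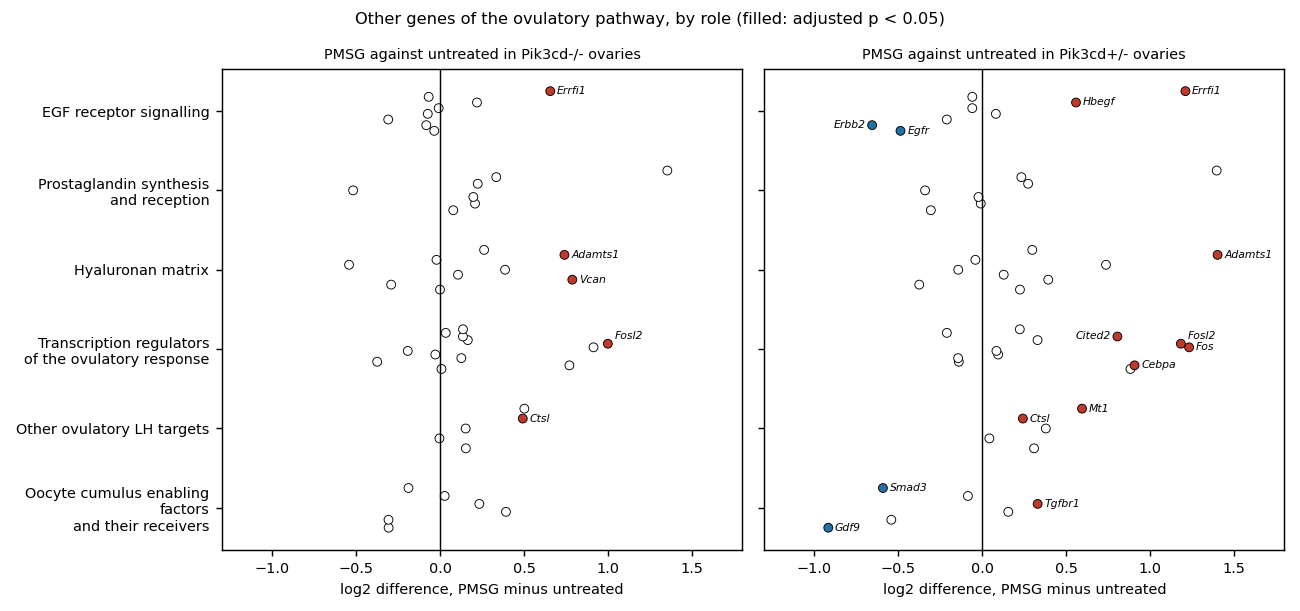
Log2 difference, PMSG minus untreated, of the 47 tested pathway genes by role, in Pik3cd-/- ovaries (left) and Pik3cd+/- ovaries (right); each point is 1 gene, filled red (higher) or blue (lower) where the adjusted p is under 0.05. Errfi1, Adamts1, Fosl2 and Ctsl are filled in both panels.

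After E2, 1 pathway gene was called higher and 1 lower in Pik3cd+/- ovaries: Itih2, an inter-alpha-trypsin inhibitor heavy chain (1.65, adjusted p = 0.00905), and Vcan (-0.88, adjusted p = 0.0328). In Pik3cd-/- ovaries 0 were called by limma. Over all genes tested 1.18% were called higher and 0.44% lower after E2 in Pik3cd+/- ovaries, and 0.0551% in either direction in Pik3cd-/- ovaries. Against E2, PMSG ovaries had 5 genes higher and 0 lower in Pik3cd-/- and 5 higher and 4 lower in Pik3cd+/- ovaries, with Vcan higher in both (1.23, adjusted p = 0.00173 and 1.28, adjusted p = 9.9e-04). In that comparison 4.11% of all genes were called (3.33% higher) in Pik3cd-/- and 11.2% (3.54% higher) in Pik3cd+/- ovaries.

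Between genotypes, 0 pathway genes were called higher and 3 lower in untreated Pik3cd-/- ovaries, 2 higher and 5 lower after PMSG, and 5 higher and 12 lower after E2. Over all genes tested the shares called in either direction were 2.17%, 4.13% and 16.8%, with 1.34% called lower in untreated ovaries. Shares by direction are not given for the comparisons after PMSG and after E2. The larger counts of lower genes there are therefore not shown to be particular to the pathway. Of the 17 calls after E2, 12 were lost with only the 2 compared groups in the model and all 17 with the replicate block in those groups. Deviations of same-numbered arrays did not correlate above 0.1 there (0.0797, -0.169 and 0.0434), so the block does not decide whether those calls hold. That block gave Fos, Itih2 and Hpgd adjusted p of 0.140, 0.134 and 0.140. The AP-1 subunit Fos was lower in all 3 states (-1.37, -1.68 and -1.60, adjusted p = 0.0248, 0.00311 and 0.00199 in untreated, PMSG and E2 ovaries). Fosl2 (-0.62, adjusted p = 0.0230) and Cited2 (-0.52, adjusted p = 0.0267) were lower after PMSG, and Gdf9 (1.05, adjusted p = 0.00418) and Smad3 (0.75, adjusted p = 0.00183) higher. Itih2 was lower after PMSG (-1.12, adjusted p = 0.0317) and after E2 (-1.96, adjusted p = 0.00123), as was Hpgd, which degrades prostaglandins (-0.66, adjusted p = 0.0308 and -0.94, adjusted p = 0.00279). Oocyte markers moved in the same comparisons: 5 of 5 were called higher in Pik3cd-/- ovaries after PMSG and after E2, and 2 of 5 untreated. Their mean log2 value ran from 11.16 to 11.36 in Pik3cd-/- ovaries after PMSG against 9.89 to 10.14 in Pik3cd+/- ovaries. Of 6 granulosa markers 0 were called between genotypes in any state. Their median differences were -0.32, -0.0086 and -0.29 in untreated, PMSG and E2 ovaries, beside -0.011, 0.014 and -0.068 over all genes. The part of the oocyte and granulosa shares of the RNA in the genotype values of the members was not tested.

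Many of these pathway calls rested on single arrays. Of the 62 calls over all comparisons, 17 held in every alternative tried and 37 were lost when 1 array was left out, at adjusted p-values of up to 0.205. Those that held included Fosl2 for PMSG in both genotypes, Adamts1, Errfi1, Cited2, Erbb2, Gdf9 and Smad3 for PMSG in Pik3cd+/- ovaries, and Fos, Gdf9 and Smad3 between genotypes after PMSG. In Pik3cd-/- ovaries the PMSG calls of Errfi1, Adamts1 and Vcan were lost without 14, 13 and 9 of the 18 arrays in turn. The PMSG call of Ctsl in Pik3cd-/- ovaries was lost in 1 of 29 alternatives (adjusted p = 0.315), which left out no single array. In Pik3cd+/- ovaries the Ctsl call was lost in 4, of which 3 left out 1 array (adjusted p up to 0.133 over all alternatives).

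For each tested member the 3 genes with the most similar pattern over the 18 arrays are given by Pearson's r of log2 values. The arrays share the 6 groups, so r follows group means as well as single arrays, and r of the deviations from the group means is given beside it. For Cebpb they were Rdh13 (0.91, within groups 0.604), Il15ra (0.862, 0.651) and Fosl2 (0.861, 0.35). For Cited1 they were Cyp51 (0.938, 0.416), Itgbl1 (0.93, 0.202) and Acsbg1 (0.925, 0.035). For Ptx3 they were Zbtb16 (0.855, 0.632), Nipal2 (0.852, 0.573) and Pcdhb20 (0.84, 0.722), and for Ereg Kcne2 (0.868, 0.73), Smim10l2a (0.864, 0.755) and Gas2 (0.85, 0.702). Among the members, Cited1 and Ereg were most alike over the 18 arrays (r = 0.697), but not within groups (-0.0572). Cebpb and Ptx3 had an r of 0.00247.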

How the data were processed

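RNA of 18 mouse ovary samples had been hybridised to Affymetrix mouse genome arrays, 3 per group in 6 groups. The deposited values are linear intensity per probe set, made by the authors with MAS5 per the submitters' processing notes, which give no version; the scaling is not given in the sources used here. MAS5 summarises perfect-match against mismatch probes, so dim values are noisy and a low value is no proof of absence.

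Of 45101 probe sets, 34945 were annotated to a single symbol, 932 to several and 9160 to none, and 64 were controls; 34741 were matched to RefSeq by Entrez ID. The probe set with the highest mean stood for each gene. Values were used as log2(signal + 8.577), where the pseudocount is the 10th percentile of all signals. Genes with no group mean above 5.87, the median, were left out. Limma 3.58.1 in R 4.3.3 fitted 6 group means (lmFit, eBayes with trend, 12 residual and 3.66 prior degrees of freedom) to 12713 genes, with Benjamini-Hochberg adjustment and 11 contrasts, 2 of them interactions; the fit was tested on simulated data. No 2 arrays were duplicates. P-values set each difference against the moderated spread between arrays within groups, and the labels do not say how many ovaries each array holds.

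The members and lists were chosen with earlier results of these data known. Text names the 9 members, the 3 genes most correlated with each tested member, and up to 3 called genes of smallest adjusted p per pathway role and comparison.

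Replicate numbers recur in every group. Of 45 same-numbered pairs of arrays, 11 deviated from their group means with a correlation above 0.1 (range -0.344 to 0.338). Only between Pik3cd-/- PMSG and Pik3cd+/- PMSG did all 3 pairs do so (0.258, 0.251 and 0.295), so the numbers were taken to pair those arrays, from the data and not from the labels. Alternatives were pseudocounts of 1 and 64, quantile normalization, eBayes without trend, no filter or a higher one (70th percentile), fits of the compared groups alone, a replicate block, the most variable probe set, and leaving out each array.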

Additional observations from a re-analysis of the deposited data

How the results depend on the processing

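Of 44 member values, 12 were called and 7 of these were called in every alternative tried: Cebpb and Cited1 for PMSG in both genotypes, Cebpb for E2 in Pik3cd+/- ovaries, and Cited1 and Ptx3 for PMSG against E2 in Pik3cd+/- ovaries. The second Cebpb probe set, fitted apart from these alternatives, did not pass for PMSG in Pik3cd-/- or for E2 in Pik3cd+/- ovaries (limma, adjusted p = 0.0815 and 0.0903). None of the 12 changed sign, and 9 uncalled values were called in at least 1 of 29 alternatives (27 for Ereg, which lay under the filter at the 70th percentile and without Pik3cd+/- PMSG replicate 3). The number of members called between genotypes in untreated ovaries, 1, became 2 without the filter and 0 with a pseudocount of 64, with only the groups compared, with the replicate block, with that block in those groups alone, and without the 2 arrays of high oviduct marker mean. After PMSG, 0 became 2 with a pseudocount of 64 and 1 with the block in those groups alone. After E2, 0 became 1 with a pseudocount of 1 and 1 with eBayes without trend. For E2 in Pik3cd+/- ovaries, 2 became 1 without the 2 arrays of high oviduct marker mean. For PMSG in Pik3cd+/- ovaries, 3 became 2 without those 2 arrays and with the block in the compared groups alone (Ptx3 in each case). For PMSG against E2 in Pik3cd+/- ovaries, 3 became 2 with only the groups compared and with that block (Ereg). For PMSG against E2 in Pik3cd-/- ovaries, 1 became 0 with the block in those groups alone (Cited1, adjusted p = 0.0785). In the untreated genotype comparison the block gave Cited1 an adjusted p of 0.0612. Elsewhere the replicate block in the model of 6 groups changed 1 member call, since Ereg for PMSG in Pik3cd+/- ovaries was called (adjusted p = 0.0385), and it ended 4 pathway calls: Errfi1 for PMSG in Pik3cd-/- (0.0667), Egfr and Hbegf for PMSG in Pik3cd+/- (0.0501 and 0.0553) and Cited2 for PMSG against E2 in Pik3cd-/- ovaries (0.0564). Of 62 pathway calls, 8 more were lost only in an alternative other than leaving out 1 array, and 1 changed sign: Ctsl between genotypes in untreated ovaries was 1.40 with the most variable probe set. At the 90th percentile of background 2 genes in place of 3 were near it. The block in the compared groups alone and the removal of those 2 arrays were chosen after seeing the data. The cause of these changes was not tested. Counts of called members in this section include Ereg, which was tested only for its high Pik3cd+/- PMSG mean. Its calls in comparisons with that group are descriptions and no support for a difference.

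Leaving out 1 array at a time, the members called ranged from 2 to 2 for PMSG in Pik3cd-/- and 2 to 4 in Pik3cd+/- ovaries, from 1 to 2 for E2 in Pik3cd+/- ovaries, from 1 to 2 and 2 to 3 for PMSG against E2 in Pik3cd-/- and Pik3cd+/- ovaries, and from 0 to 1, 0 to 2 and 0 to 2 between genotypes in untreated, PMSG and E2 ovaries. For E2 in Pik3cd-/- ovaries and both interactions it stayed at 0. The genes called over all those tested moved more. After E2, the 2141 called between genotypes became 97 with only the groups compared and 0 with the block in those groups. Over the alternatives other than leaving out 1 array, they ranged from 213 to 485 and 416 to 2523 for PMSG in Pik3cd-/- and Pik3cd+/- ovaries, 0 to 16 and 75 to 1064 for E2, 31 to 582 and 181 to 1430 for PMSG against E2, and 1 to 425 and 65 to 1062 between genotypes in untreated and PMSG ovaries. With 1 array left out they were 86 to 741 and 872 to 2742 for PMSG in Pik3cd-/- and Pik3cd+/- ovaries, 1 to 24 and 33 to 670 for E2, 235 to 1363 and 613 to 1828 for PMSG against E2, and 1 to 681, 82 to 982 and 646 to 2971 between genotypes in untreated, PMSG and E2 ovaries. Without Pik3cd-/- E2 replicate 3, Cebpb was called for PMSG against E2 in Pik3cd-/- ovaries (0.37, adjusted p = 0.0277). The member values that changed sign were all uncalled. Ptx3 between genotypes in untreated ovaries ranged from -0.055 to 0.15: it was -0.014 without Pik3cd+/- untreated replicate 1 and -0.055 without Pik3cd-/- untreated replicate 1. Ptx3 for PMSG in Pik3cd-/- ovaries ranged from -0.14 to 0.062 and was 0.062 without untreated replicate 1 and 0.032 without PMSG replicate 1 of that genotype. The Ereg interaction for PMSG ranged from -0.74 to 0.039 and was 0.039 without Pik3cd-/- PMSG replicate 2.

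A pseudocount of 64 shrank the differences of dim genes, as its construction implies: the Cited1 difference for PMSG in Pik3cd-/- ovaries was 0.84 in place of 1.41. Signals near the olfactory receptor level limit Has2, Ptgs2, Tnfaip6, Btc and most Ereg values.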
